A study of Bos taurus with 45 samples.

Results

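Ruminal papillae of 10 heifers on the same 89% grain diet were compared, 5 heifers of the group named DG with 5 of the group named UG. These were 10 of the 45 samples of the study, which took 1 RNA-seq sample from each of 15 heifers on each of 3 diets. The animals were Angus-Hereford cross-bred heifers of about 8 months, and all of them were moved stepwise from forage to grain. Biopsies were taken on day 3 on 0% grain, on day 15 on 72% grain and on day 26 on 89% grain, the diet that the labels write as 92. The groups were formed by the direction in which mean ruminal pH moved from 72% to 89% grain, downward in DG (heifers 192, 314, 236, 170 and 182) and upward in UG (heifers 262, 178, 352, 286 and 360). The remaining 5 heifers (172, 294, 246, 362 and 258), whose pH stayed similar, are given as the other 5. They took part in no main test, but entered the expression filter and the alternative fits over 15 or 45 samples. DG and UG were thus not assigned to a treatment, the same diet was fed to both, and the pH values themselves were not analysed here.

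The inner surface of the rumen is a stratified squamous epithelium folded into papillae. It takes up the short-chain fatty acids that microbes produce from feed, transports protons and bicarbonate, and forms with its cornified outer cells a barrier against the rumen content. Grain ferments faster than forage, so that ruminal pH falls, and cattle on the same diet are known to differ in how far it falls. The question of the comparison was whether the epithelium of heifers whose pH fell at the last step differed, on the 89% grain diet itself, from that of heifers whose pH rose.

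Each sample was measured as RPM, the reads on a gene scaled to 1000000 reads on all genes. The 10 libraries held between 25416413 and 34569712 reads on genes, so that 1 RPM stood for at least 25.4 reads, and DG and UG overlapped in depth. Between 11918 and 12371 genes per heifer had RPM over 1. The library of UG heifer 286 stood apart from the other 9. In it the 10 most abundant genes took 26% of the reads, against 17.0% to 21.0% in the others, and it had the fewest genes over RPM 1. It was the lowest of the 10 heifers at 46.9% of the 11516 genes tested, where the other 9 were lowest at 3.41% to 9.67%. The first principal component, with 28.0% of the variance, placed heifer 286 at a score of 41.9 and the other 9 heifers between -16.9 and 4.90. The second component, with 18.4% of the variance, ranged from UG heifer 352 at -24.1 to DG heifer 182 at 24.6. Neither component separated DG from UG. Values that heifer 286 moved most are given with and without it.

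**Figure D1:**
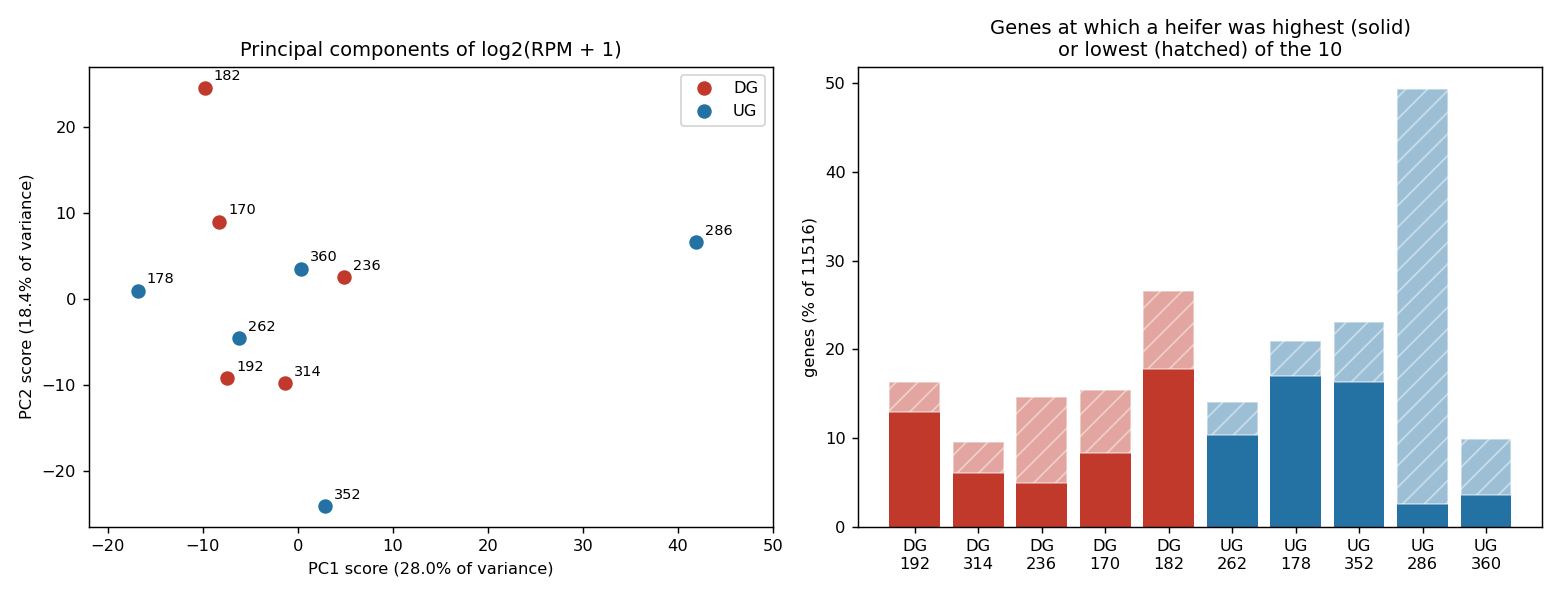
Left, scores of the 10 heifers on the first 2 principal components of log2(RPM + 1) over 11516 genes. Right, the share of these genes at which each heifer had the highest (solid) or the lowest (hatched) value of the 10. DG is red and UG is blue. UG heifer 286 lies alone at 41.9 on the first component and is the lowest heifer at 46.9% of the genes.

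No gene passed the test between DG and UG on 89% grain. The values entered limma as log2(RPM + 1), and calling a gene took a fold over 1.5 and a p under 0.05 after Benjamini-Hochberg adjustment. Of the 11516 genes tested, 0 (0%) were called, and the smallest limma adjusted p was 0.969. Before adjustment, 395 genes (3.43%) had a limma p under 0.05, and edgeR on the recovered reads also called 0 genes, with 487 genes under 0.05 before adjustment. DESeq2 on the same reads called 2 genes, which are described below. Without heifer 286 the count was 0 as well, with a smallest limma adjusted p of 0.967. Leaving out UG heifer 178 gave 0 genes and the lowest adjusted p of the 10 fits with 9 heifers, 0.0817 in limma.

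The size of the differences on the scale of log2(RPM + 1) could be bounded for most genes. The median standard error of the log2 difference was 0.14, and the 95% interval reached 0.29 on the log2 scale to either side for the median gene. For 9476 genes (82.3%) the whole interval lay within a fold of 1.5 in both directions, and for 97.7% it lay within a fold of 2. These intervals hold for 1 gene at a time. A fold on the scale of log2(RPM + 1) understates that of low genes, so for these the bound is not one on RPM. The group term took 9.92% of the total variance of the 10 samples, where its 1 of 9 degrees of freedom is 11.1%. Without heifer 286 it took 11.4%, beside 12.5% of the degrees of freedom. The distance between groups lay within the distances inside them. Between 2 heifers, the median gene differed by 0.19 on the log2 scale on average within DG (10 pairs), by 0.24 within UG (10 pairs) and by 0.21 between DG and UG (25 pairs). Without heifer 286 the mean was 0.19 within UG (6 pairs) and likewise 0.19 between the groups (20 pairs).

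The direction of the small differences turned with 1 library. The log2 difference, taken as DG minus UG throughout, had a median of 0.04 over all genes tested, and 62.0% of the genes had a higher mean in DG. With TMM scaling, which corrects each library for a few abundant genes, the share was 50.2%, and without heifer 286 it was 44.4%. At 50 genes (0.434% of those tested) every DG heifer was above every UG heifer, and at 13 genes (0.113%) every DG heifer was below every UG heifer. DG thus lay above UG at 79.4% of the 63 genes without overlap, but at 64.1% of such genes with TMM scaling and at 43.4% without heifer 286, where 53 genes lay above and 69 below. Leaving out heifer 178 moved the share the other way, to 90.2%, with 230 genes above and 25 below. TMM scaling kept 19 of the 50 and 7 of the 13. The differences at these genes were small, with a median fold of 1.20 for the 50 and 1.23 for the 13, and 2 of the 50 and 1 of the 13 passed a fold of 1.5.

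**Figure D2:**
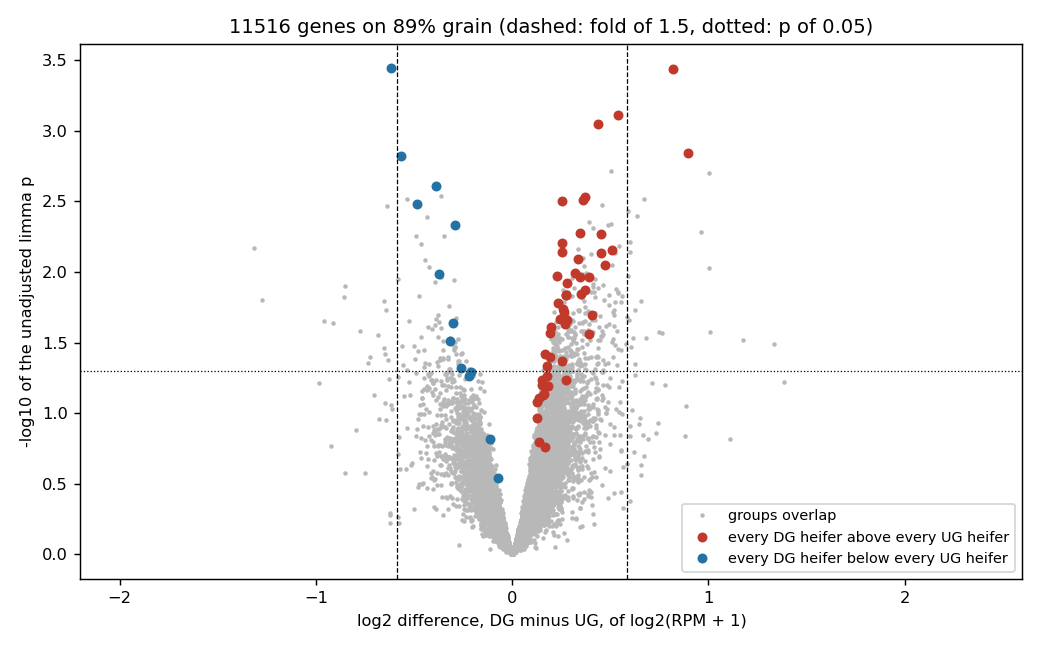
Each point is 1 of 11516 genes on 89% grain, with the log2 difference DG minus UG on the x axis and -log10 of the unadjusted limma p on the y axis. Red and blue points are the 50 genes with every DG heifer above and the 13 with every DG heifer below every UG heifer. Beyond the dashed lines at a fold of 1.5 lie 76 genes, and no gene passes after adjustment in limma.

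The files give genes by Ensembl ID and pair no ID with a name, and the reference table matched 0 of the 24616 IDs. Names are therefore given only for 13 IDs that the study pairs with a name or description, and for 5 whose pairing is inferred. These 5, *CYP1A1*, *CYP1B1*, *KLK10*, *CDSN* and *CHAC1*, are the only IDs that moved in opposite directions in DG and UG in the lists of the study, and each was matched to a name by the order of the fold changes. They were chosen for their behaviour in these samples, so their values are no independent evidence for a difference between DG and UG. The 13 were likewise chosen on samples of this study. The study lists them as detected in all heifers on a single diet only, with a mean over 5 RPM there. The named genes are thus not a random sample of the genes tested. Markers of keratinocytes, fibroblasts, muscle, endothelium or leukocytes could not be looked up by ID, and the tissue label was not checked against them. In whole papillae, fewer cells of a type and less RNA per cell cannot be told apart.

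*CYP1B1* (ENSBTAG00000010531) and *CYP1A1* (ENSBTAG00000001021) are cytochrome P450 enzymes that oxidise foreign compounds and are switched on through the aryl hydrocarbon receptor. *CYP1B1* had 5.82, 25.0, 14.0, 13.8 and 6.03 RPM in DG heifers 192, 314, 236, 170 and 182, and 14.6, 16.7, 33.3, 15.6 and 15.6 RPM in UG heifers 262, 178, 352, 286 and 360. DG heifers 192, 236, 170 and 182 lay below all of UG, and DG heifer 314 lay above all UG heifers but 352. The means were 12.9 ± 7.85 RPM in the DG heifers and 19.2 ± 7.95 RPM in UG (SD, n = 5 each), a log2 difference of -0.65 with a 95% interval from -1.40 to 0.10 (limma adjusted p = 0.969). The other 5 heifers ranged from 11.5 to 28.1 RPM. *CYP1A1* had 63.1, 166, 75.0, 37.8 and 45.5 RPM in the DG heifers and 254, 46.2, 120, 119 and 43.1 RPM in UG, in the same order of heifers. High and low heifers were found in both groups, and the log2 difference was -0.48 (95% interval from -1.51 to 0.55, limma adjusted p = 0.969). It was -0.12 without UG heifer 262 and -0.80 without DG heifer 314.

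These 2 genes stood in the opposite order on the previous diet. On 72% grain *CYP1A1* ranged from 88.7 to 237 RPM in the DG heifers and from 54.4 to 77.6 RPM in UG, without overlap. *CYP1B1* had a mean of 24.7 ± 16.0 RPM in the DG heifers and 11.6 ± 5.08 RPM in UG (SD, n = 5 each) on that diet. From 72% to 89% grain *CYP1B1* was lower in 5 of 5 DG heifers and higher in 5 of 5 UG heifers and 4 of the other 5. The change differed between DG and UG by -1.56 on the log2 scale, with a limma adjusted p of 0.808 over all genes and of 0.371 with the heifer as a block.

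*KLK10*, *CDSN* and *CHAC1* are linked to the outer layers and to stress of epithelial cells. *KLK10* (ENSBTAG00000015129), a kallikrein-related peptidase of epithelia, had 9.24, 14.5, 8.26, 8.05 and 27.9 RPM in the DG heifers and 4.52, 10.1, 2.17, 1.33 and 13.6 RPM in UG. DG heifers 192, 236 and 170 lay between the 3 lowest and the 2 highest UG heifers, so the groups overlapped. Its log2 difference of 1.17 had a 95% interval from 0.13 to 2.22 (limma unadjusted p = 0.0302, limma adjusted p = 0.969). On 72% grain its order was reversed in the means, 8.81 RPM in the DG heifers and 23.1 RPM in UG, but UG heifer 352 alone had 88.0 RPM there. *CDSN* (ENSBTAG00000021721) encodes corneodesmosin, which holds cornified cells together, and *CHAC1* (ENSBTAG00000010371) an enzyme that breaks down glutathione under stress. Neither was tested, because neither had RPM over 1 in all 15 heifers on any diet. *CDSN* values lay from 0.787 to 28.8 RPM in DG, from 0.521 to 50.3 RPM in UG and from 0.258 to 146 RPM in the other 5. *CHAC1* ranged from 1.60 to 10.7 RPM in the DG heifers and from 0.0868 to 9.16 RPM in UG. On 72% grain all DG heifers had had less *CHAC1* than any UG heifer, 1.68 to 3.16 RPM against 3.39 to 14.0 RPM, and this order was gone on 89% grain.

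The few named genes of signalling and defence overlapped between the groups, as did nearly all genes tested. *FOSB* (ENSBTAG00000008182), a transcription factor gene that responds within minutes to stimuli, had 1.36, 66.0, 0.787, 3.51 and 3.02 RPM in the DG heifers and 42.9, 31.9, 0.694, 1.68 and 4.73 RPM in UG. The 3 heifers over 30 RPM were DG heifer 314 and UG heifers 262 and 178, and the other 5 had at most 2.01 RPM. The log2 difference was -0.58 with a standard error of 1.06, and became 0.03 without heifer 262. On 0% grain *FOSB* had not overlapped, at 8.32 to 15.5 RPM in the DG heifers and 1.17 to 7.84 RPM in UG (limma adjusted p = 0.536). The attractant of neutrophils C-X-C motif chemokine 6 (ENSBTAG00000009812) ranged between 0.944 and 5.73 RPM in DG and between 0.550 and 13.8 RPM in UG, where heifer 178 was the highest. Its log2 difference of -0.39 was -0.70 without heifer 286 and 0.11 without heifer 178. *BOLA-A* (ENSBTAG00000005182), a heavy chain of major histocompatibility complex class I, had 8.65, 11.7, 4.37, 0.989 and 9.11 RPM in the DG heifers and 3.30 to 12.6 RPM in UG. Heifer 170 was the lowest of the 10 also on 72% and 0% grain, at 0.963 and 1.52 RPM. Class I genes are near-identical copies, so the level of a single one is uncertain.

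*LIFR* (ENSBTAG00000010423), the receptor for leukaemia inhibitory factor, had close means on 89% grain, 4.96 ± 1.31 RPM in the DG heifers and 4.64 ± 3.06 RPM in UG (SD, n = 5 each). The UG heifers were spread more widely, with 5.07, 1.85, 9.11, 5.50 and 1.69 RPM against 4.10, 4.73, 4.05, 4.70 and 7.23 RPM in DG. On 72% grain the groups had not overlapped, at 3.23 to 7.30 RPM in the DG heifers and 0.892 to 2.02 RPM in UG, a log2 difference of 1.13 (limma adjusted p = 0.655). From 72% to 89% grain *LIFR* was higher in 5 of 5 UG heifers and in 3 of 5 DG heifers. The difference between these changes had a limma adjusted p of 0.808, and of 0.375 with the heifer as a block. *BMP6* (ENSBTAG00000019234), a ligand of the transforming growth factor beta family, had 0.590 to 2.81 RPM in the DG heifers and 0.906 to 3.16 RPM in UG. Its log2 difference of -0.20 was -0.38 without heifer 286.

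The few named genes of the extracellular matrix and of lipid transport overlapped as well, as did nearly all genes tested. Other genes of these classes could not be looked up by ID. *LOXL2* (ENSBTAG00000006214), which cross-links collagen, had a mean of 3.43 ± 2.49 RPM in the DG heifers and 3.42 ± 0.766 RPM in UG (SD, n = 5 each). *CTGF* (ENSBTAG00000006367), a matrix-associated growth factor, had 4.80 ± 2.30 RPM and 3.99 ± 2.66 RPM, and its log2 difference of 0.33 was 0.02 without heifer 286. *ABCG1* (ENSBTAG00000021272), an exporter of cholesterol, had 13.6, 6.29, 11.7, 3.68 and 5.77 RPM in the DG heifers and 3.45, 8.14, 5.61, 3.17 and 4.79 RPM in UG. DG heifers 192 and 236 lay above all UG heifers and the remaining 3 lay within their range, for a log2 difference of 0.55 with a 95% interval from -0.12 to 1.21 (limma adjusted p = 0.969). *RASL1A* (ENSBTAG00000005244), described as RAS-like family 11 member A, a small GTPase, had 8.39, 7.50, 11.6, 2.05 and 13.2 RPM in the DG heifers and 1.40, 9.55, 4.43, 1.91 and 7.56 RPM in UG. Its log2 difference was 0.73 (95% interval from -0.27 to 1.74, limma adjusted p = 0.969). In the other 5 heifers *RASL1A* ranged from 1.22 to 16.9 RPM, more widely than in DG or UG.

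The 4 remaining named genes were *CDHR2* (ENSBTAG00000025340), a cadherin of microvilli, *VNN1* (ENSBTAG00000015094), a pantetheinase, *CXorf57* (ENSBTAG00000003668) and an uncharacterized gene. Their log2 differences were -0.26, 0.16, 0.04 and 0.35, with standard errors of 0.44, 0.17, 0.45 and 0.47, respectively. *VNN1* was low in both groups, from 0.590 to 1.45 RPM in the DG heifers and from 0.485 to 1.45 RPM in UG, and its log2 difference was 0.08 without heifer 286. *CXorf57* had 1.60 RPM in DG heifer 170 and 8.81 RPM or more in the other DG heifers, and heifer 170 was also the lowest of the 10 on 72% and 0% grain, at 0.185 and 0.337 RPM. None of the 16 named genes that were tested passed in limma. The groups overlapped at all 18 named genes on 89% grain, as at all but 0.434% (DG above) and 0.113% (DG below) of the genes tested, so this overlap is near the background.

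**Figure D3:**
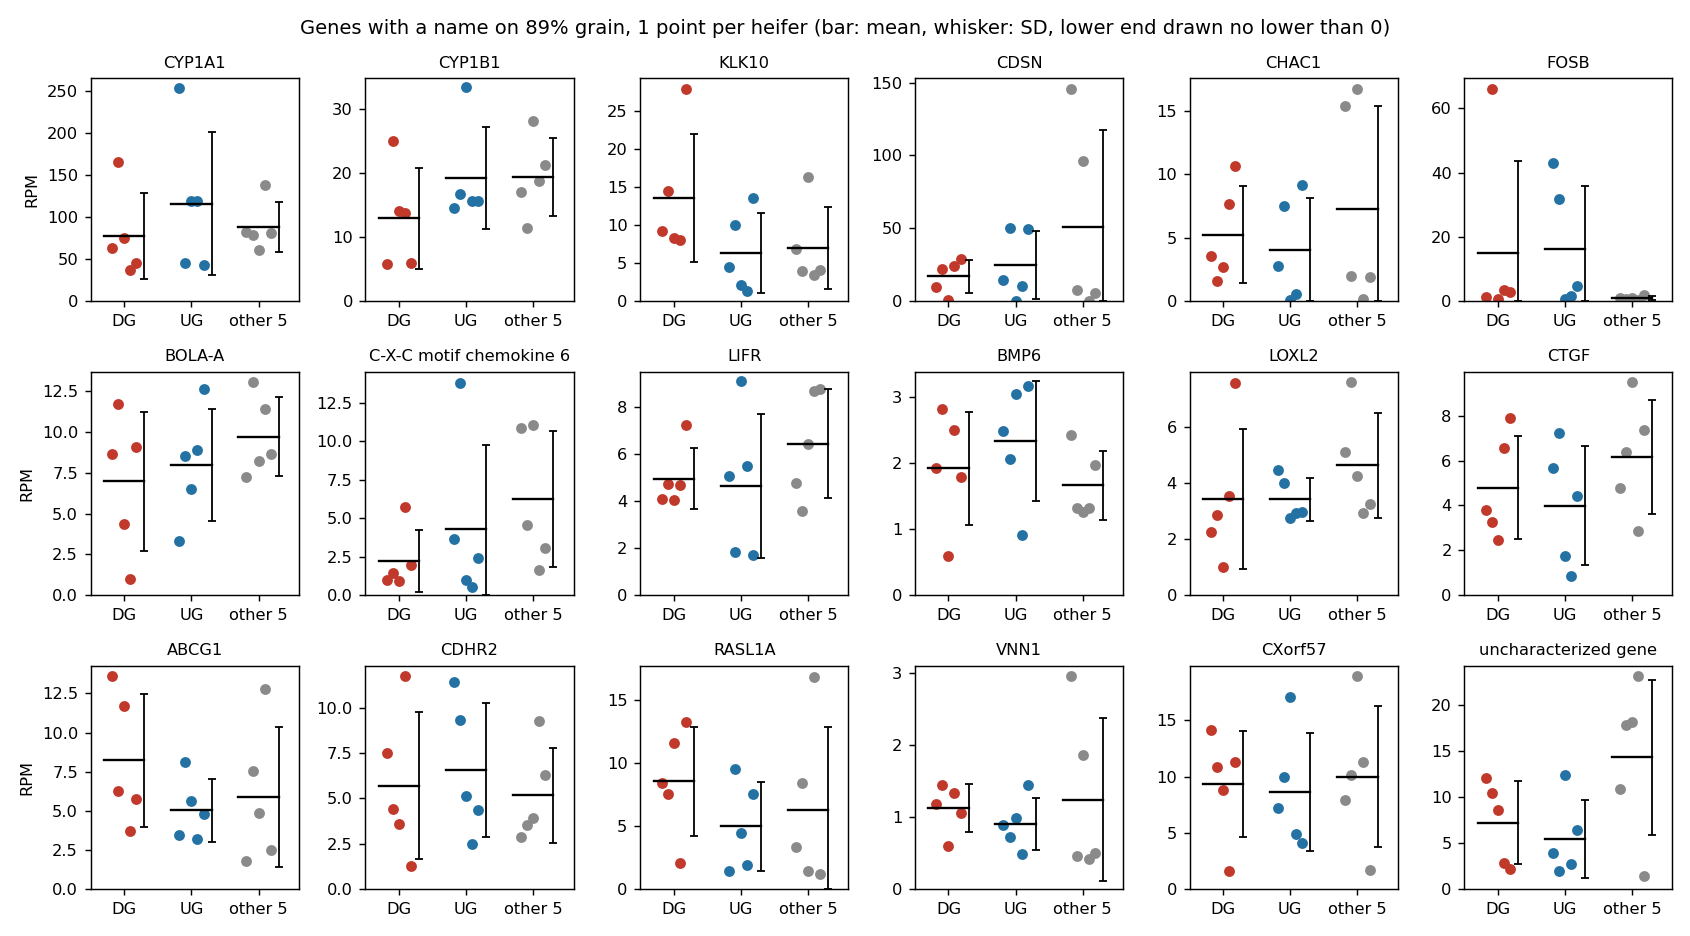
RPM on 89% grain of the 18 genes that could be named or described, with 1 point per heifer, a bar at the mean and a whisker of 1 SD that is drawn no lower than 0. Red is DG, blue is UG and grey is the other 5 heifers. The ranges of DG and UG overlap in every panel, and *FOSB* is over 30 RPM in 1 DG heifer and 2 UG heifers.

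The 2 largest differences without overlap in each direction, among genes with a mean of at least 5 RPM over the 10 heifers, belonged to genes known by ID only. ENSBTAG00000005670 had 27.8, 19.9, 33.7, 17.6 and 30.0 RPM in DG heifers 192, 314, 236, 170 and 182 and 12.7, 15.3, 15.0, 11.3 and 15.1 RPM in UG heifers 262, 178, 352, 286 and 360. The lowest DG heifer was 170 and the highest UG heifer 178, and the other 5 heifers ranged from 10.2 to 32.0 RPM, over both groups. Its log2 difference was 0.82 with a standard error of 0.17 (limma adjusted p = 0.969). ENSBTAG00000008471 had 12.3, 10.4, 9.72, 9.51 and 10.1 RPM in the DG heifers and 2.96, 7.15, 5.61, 3.27 and 8.28 RPM in UG, a log2 difference of 0.90 with a standard error of 0.22. Its DG heifers lay close together, and UG heifers 262 and 286 were the lowest.

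Among genes lower in DG, ENSBTAG00000021242 had 8.95, 11.3, 12.4, 13.1 and 12.5 RPM in the DG heifers and 16.3, 22.8, 18.4, 17.4 and 16.9 RPM in UG. Its log2 difference was -0.62 with a standard error of 0.13 (limma adjusted p = 0.969). ENSBTAG00000014069 had 10.9, 10.2, 8.03, 6.48 and 7.49 RPM in the DG heifers and 11.5, 14.8, 13.4, 12.4 and 13.1 RPM in UG, a log2 difference of -0.56 with a standard error of 0.14. All 4 genes kept their separation with TMM scaling. ENSBTAG00000005670 and ENSBTAG00000021242 were the 2 genes called by DESeq2, with log2 differences of 0.86 and -0.70 and a DESeq2 adjusted p of 0.0118 for each, whereas edgeR on the same reads gave an adjusted p of 0.929 for both. The 4 genes were singled out after their values were seen, while DESeq2 was run on all genes tested.

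The order of the means was the same on all diets for 3 of the 4 genes, and for ENSBTAG00000014069 on 0% and 89% grain. ENSBTAG00000021242 had a lower mean in DG on every diet, 12.4 against 16.8 RPM on 0% grain and 13.9 against 20.3 RPM on 72% grain, with limma adjusted p-values of 0.610 and 0.721. ENSBTAG00000014069 had 9.41 ± 2.37 RPM in the DG heifers and 9.21 ± 2.81 RPM in UG on 72% grain (SD, n = 5 each), and 7.34 against 8.68 RPM on 0% grain. ENSBTAG00000005670 had 21.2 ± 3.11 RPM in the DG heifers and 19.5 ± 8.70 RPM in UG on 72% grain, and 13.2 against 11.1 RPM on 0% grain. ENSBTAG00000008471 had a higher mean in DG on all diets, and UG heifer 286 had 15.7 RPM on 72% grain but 3.27 RPM on 89% grain.

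**Figure D4:**
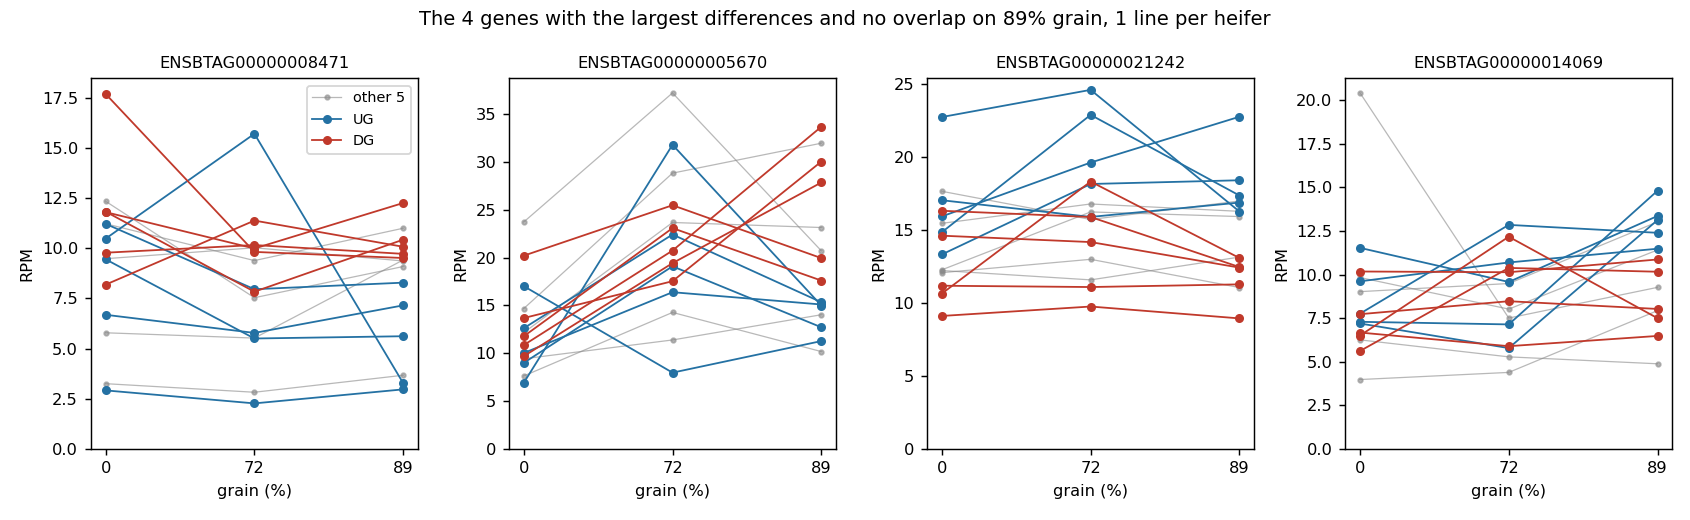
RPM of the 4 genes on 0%, 72% and 89% grain, with 1 line per heifer (red DG, blue UG, grey the other 5). The red and blue points are separate on 89% grain, where the genes were selected, and overlap on 0% and 72% grain.

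The genes without overlap on 89% grain were followed back to the earlier diets of the same heifers. Of the 50 genes with DG above UG, 38 had a higher mean in DG on 72% grain and 43 on 0% grain. Over all genes tested, 43.5% and 61.7% did so on these diets. Of the 13 genes with DG below UG, 9 had a lower mean in DG on 72% grain and 6 on 0% grain, beside 56.5% and 38.3% of all genes. None of the 63 was without overlap on 72% or on 0% grain. The mean of the other 5 heifers lay between those of DG and UG for 37 of the 50 and for 12 of the 13 genes. These genes were selected for DG and UG lying apart on this diet, which by itself favours such a position. The share over all genes tested was not computed, so no order of the pH groups is drawn from these counts.

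The same tests were made on the earlier diets. On 72% grain 0 genes (0%) were called in limma, 792 (6.88%) had an unadjusted p under 0.05, and the groups did not overlap at 38 genes with DG above (0.33%) and 97 with DG below (0.842%). On 0% grain 0 genes (0%) were called, 914 (7.94%) had an unadjusted limma p under 0.05, and 110 genes (0.955%) lay above and 39 (0.339%) below. The share of variance between the groups was 12.4% on 72% grain and 13.8% on 0% grain, and 15.1% and 16.5% without heifer 286. The change from 72% to 89% grain differed between DG and UG at 0 genes (0%), with a smallest limma adjusted p of 0.808 without and 0.371 with the heifer as a block. Before adjustment 695 and 1263 genes had a limma p under 0.05, respectively. On 89% grain the spread was wider in UG at 65.6% of the genes, with a median SD of 0.23 on the log2 scale against 0.18 in DG. Without heifer 286 it was wider in UG at 49.8% of the genes.

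Lists of IDs published with the study were used to describe groups of genes. For the genes that fell in UG from 72% to 89% grain, 154 of 163 IDs were tested, and 134 of the 154 had a higher mean in DG on 89% grain. Over all genes tested, 62.0% did so. The median log2 difference of the list was 0.28, beside 0.04 for all genes tested. For the genes that rose in UG, 109 of 122 IDs were tested, and 18 of the 109 had a higher mean in DG, with a median of -0.15. Both lists were chosen on the change of these UG samples from 72% to 89% grain, so their direction on either diet is in part that of their selection and is not independent evidence. On 72% grain 5 of the 154 and 104 of the 109 genes had a higher mean in DG. On 0% grain, which the selection did not use, 128 of the 154 and 89 of the 109 did so, beside 61.7% of all genes. On 89% grain 0 genes of either list were without overlap, which is near the background of 0.434% with DG above and 0.113% with DG below.

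The mean level of a list in each heifer on 89% grain showed the same overlap. Over the 154 genes that fell in UG, the mean of log2(RPM + 1) ranged from 3.90 to 4.52 in DG, from 3.51 to 4.51 in UG and from 3.71 to 4.71 in the other 5. Without heifer 286 the median difference was 0.22, and without heifer 178 it was 0.42. Over the 109 genes that rose in UG, DG heifers ranged from 3.44 to 4.10 and UG heifers from 3.63 to 4.40, and the median was -0.04 without heifer 352.

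For the genes that rose in DG from 72% to 89% grain, 17 of 22 IDs were tested. Of the 17, 13 had a higher mean in DG on 89% grain (76.5%, beside 62.0% of all genes), with a median of 0.31. Without heifer 286 this median was 0.06 and without heifer 352 it was 0.14. In each case 11 of the 17 were higher (64.7%), beside 44.4% and 67.2% of all genes, respectively. For the genes that fell in DG, 40 of 45 IDs were tested. Of the 40, 9 had a higher mean in DG (22.5%, beside 62.0% of all genes). Their median was -0.21, with -0.32 without heifer 286. These lists too were chosen on the DG samples compared here. In each heifer the mean of the 40 genes ranged from 3.24 to 3.88 in DG and from 3.25 to 4.40 in UG.

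**Figure D5:**
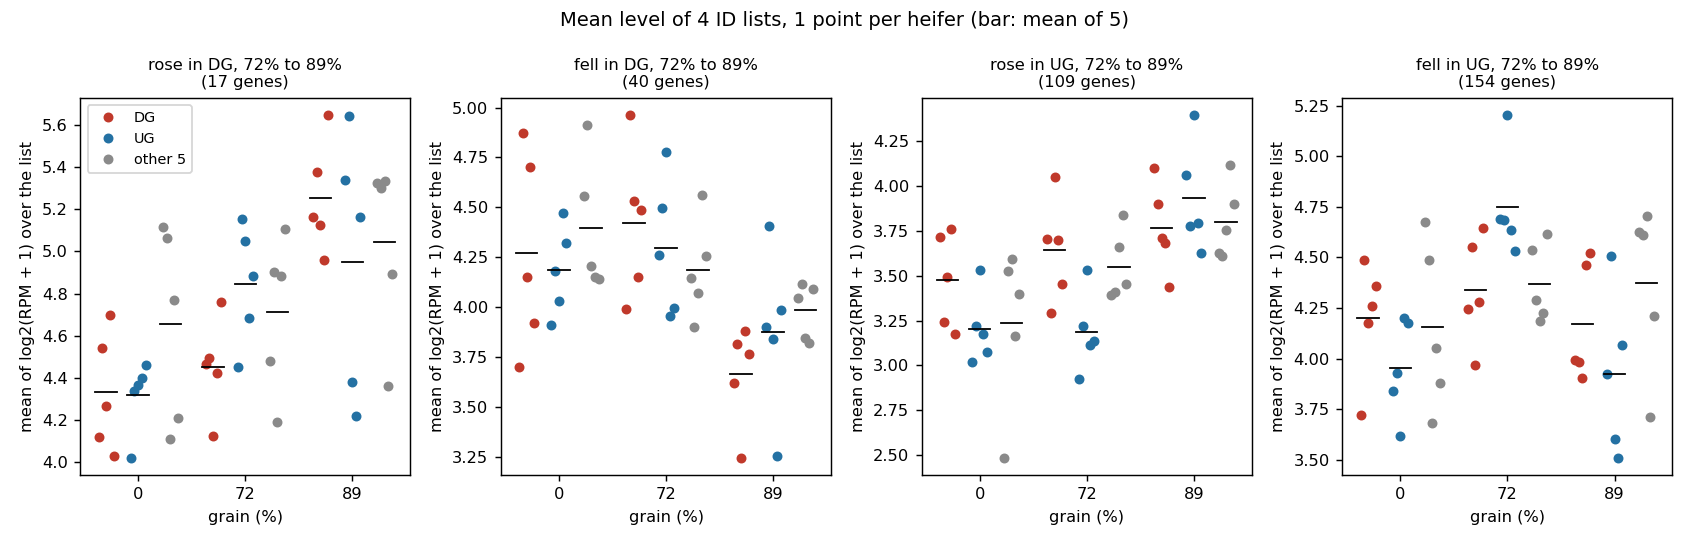
Mean of log2(RPM + 1) over the tested genes of 4 ID lists in each heifer on 0%, 72% and 89% grain (red DG, blue UG, grey the other 5), with a bar at the mean of 5 heifers. The lists were chosen on the change from 72% to 89% grain in DG or in UG. On 89% grain DG and UG overlap in all 4 panels.

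The lists of genes that differed between diets over all heifers were described in the same way. The 302 genes listed as higher on 89% than on 0% grain had a median log2 difference of -0.06 on 89% grain, with 107 higher and 195 lower in DG. The share higher in DG was thus 35.4%, beside 62.0% of all genes, and 28.1% beside 44.4% without heifer 286. The 93 genes listed as lower on 89% grain had a median of 0.03. The median of the 302 genes was -0.0035 without heifer 352 and -0.10 without heifer 286, and that of the 93 genes was likewise -0.10 without heifer 286. For the 241 genes higher and the 47 genes lower on 72% than on 0% grain, the medians were -0.02 and -0.07, and both were above 0 without heifer 178, at 0.01 and 0.0052. Without heifer 286 they were -0.08 and -0.16. Of these lists, 1 gene higher on 72% grain and 2 genes higher on 89% grain were without overlap between DG and UG on 89% grain, which is again near the background of 0.434% and 0.113%.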

How the data were processed

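RNA from ruminal papillae of 15 heifers on 3 diets was sequenced by the authors, 1 library per heifer and diet. Reads were aligned with Tophat (TopHat2 2.0.10, after CASAVA 1.8, per the submitters' processing notes) to the bovine UMD genome, counted per Ensembl gene with htseq-count (HTSeq), and deposited as RPM, reads scaled to 1000000 reads on genes. Every value was a whole number of reads within 0.01 reads (100% of values), and reads were recovered from this. The recovered totals of the 10 libraries exceed the mean number of reads per sample that the study reports. The reason was not tested, so a recovered read need not be an independent fragment, also in edgeR and DESeq2. No 2 of the 10 libraries were duplicates, with a smallest chi-square per degree of freedom of 32.9 over 45 pairs. The lane of each sample is not given in the sources used here.

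Groups came from the heifer numbers in the labels and the heifers of each pH group. Genes with RPM over 1 in all 15 heifers on at least 1 diet (11516 of 24616) entered limma 3.58.1 (R 4.3.3), with log2(RPM + 1), a trended prior variance, 10 samples per fit and no block, since no heifer is in both groups. A fold is on this scale and understates low genes. The change from 72% to 89% grain was fitted over 20 samples without a block, and with the heifer as a block as an alternative. Deviations from the group means correlated between the 2 samples of a heifer in all 10 heifers (0.164 to 0.459 across genes). edgeR 4.0.16 and DESeq2 1.42.0 were run on the recovered reads. The limma and edgeR tests were checked on simulated data, and DESeq2 was not. P-values of DG against UG on 1 diet were computed, in the main fits, from the spread between heifers of a group. Those of the change used the spread between samples without a block. With the block they used the spread of the changes within heifers.

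Named genes are those with an ID pairing, and the 2 IDs in each direction with the largest difference without overlap and a mean of at least 5 RPM. The rule's other genes, the 31 lists of gene symbols and the cell type markers could not be applied, since 0 IDs matched a symbol. No sequences of these genes were used here. Members and lists were chosen with earlier results of these data known. Python 3.11.15 was used for the remaining steps. The alternatives were other scalings, pseudocounts, filters, tests and fold minimums, more samples in the fit, and each heifer left out. Array weights, the alternatives for genes without overlap and the list medians without UG heifers 286 and 178 were added after the data were seen.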

Additional observations from a re-analysis of the deposited data

Results flagged for a closer look

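In 70 groups of 5 values on 89% grain, 6 values lay far from the other 4 of their group by Dixon's criterion. About 5% of groups pass it by chance if they are normal and independent, but these groups share heifers and genes. Gene values below are printed as RPM, which need not be the scale on which the criterion was met. *FOSB* was 66.0 RPM in DG heifer 314, where the next DG heifer had 3.51 RPM. *CXorf57* was 1.60 RPM in DG heifer 170, the lowest of DG on all diets. *LIFR* was 7.23 RPM in DG heifer 182, and *CYP1B1* was 33.3 RPM in UG heifer 352. The mean of log2(RPM + 1) over the genes listed as higher on 89% than on 0% grain was 3.595 in DG heifer 192. UG heifer 286 had 11918 genes over RPM 1, the fewest of UG.

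*CYP1B1* differed in the direction of its change from 72% to 89% grain, with a mean log2 change of -0.85 in DG (lower in 5 of 5 heifers) and of 0.71 in UG (higher in 5 of 5 heifers). Over all genes the difference between these changes did not pass, with a limma adjusted p of 0.808, or 0.371 with the heifer as a block. The gene had been chosen for this opposite change.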

How the results depend on the processing

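The count of 0 genes between DG and UG on 89% grain held under 23 of the 24 alternatives, and DESeq2 gave 2 genes (1 higher and 1 lower in DG). Fitting all 45 samples together, with a replicate block for each heifer, gave 0 genes. For the change from 72% to 89% grain, the block likewise gave 0 genes, and it changed no other call. On 72% grain 0 genes were called without any single heifer. On 0% grain the count ranged from 0 to 1, with 1 gene without DG heifer 192 and 1 without DG heifer 236. Genes without overlap on 89% grain ranged from 53 to 230 with DG above and from 17 to 69 with DG below when a heifer was left out, since fewer heifers separate more easily. The highest counts came without UG heifers 178 and 286, respectively. With DG below, TMM scaling gave 23 genes and no expression filter 35.

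Of the 20 named genes fitted, 13 kept the sign of their log2 difference under the 14 alternatives run for single genes, and 0 passed under these. DESeq2 was not among the 14, and its 2 calls were ENSBTAG00000005670 and ENSBTAG00000021242. The other 7 turned sign when a heifer was left out, with ranges from -1.48 to 0.028 for *FOSB*, -0.57 to 0.11 for *BOLA-A*, -0.38 to 0.0071 for *BMP6*, -0.70 to 0.11 for C-X-C motif chemokine 6, -0.42 to 0.10 for *LOXL2*, -0.15 to 0.49 for *CXorf57* and -0.55 to 0.079 for *CDHR2*. The medians of the lists moved by less than the SD between heifers. Leaving out 1 of 5 heifers can hardly move them by that much, so this does not show that they were stable. Without heifer 286 the median of the genes lower on 89% than on 0% grain turned from 0.03 to -0.10. That of the genes that rose in DG went from 0.31 to 0.06. At 1 RPM a value rests on at least 25.4 recovered reads. With 5 heifers per group, the spread between heifers set the precision.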

Other observations

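At the threshold of RPM 1, 0 of the 24616 genes were over it in every DG heifer and in no UG heifer on 89% grain. The reverse held for 2 genes, at 1.07 to 1.84 RPM in UG and 0.502 to 0.984 RPM in DG, so that both lay close to the threshold in all 10 heifers. Over RPM 1 in all 10 heifers were 11367 genes.

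In a fit that gave each sample a weight from its own spread, added after the data were seen, UG heifer 286 had a weight of 0.281 and the others had 0.813 to 1.62. This fit called 0 genes in limma, with 421 genes at an unadjusted p under 0.05, and moved the median log2 difference of all genes from 0.04 to 0.0069.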
